A study of Mus musculus with 16 samples.

Results

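The genes described here build the DNA replication machinery and supply its deoxynucleotides: the MCM helicase, origin licensing and helicase activation factors, polymerases and primase, the PCNA clamp and its loader, single-strand binding proteins, Okazaki fragment enzymes, nucleotide enzymes and the CAF-1 chromatin assembly factor. The list holds 43 genes by name, of which 40 had a probe on the arrays, out of 16593 named genes with a probe. Gins1, Gins2 and Rfc3 had none and are not analysed here. Each gene was read from its brightest probe over the 16 arrays, and all 40 passed the filter on low values.

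Replication origins are licensed when the origin recognition complex, CDC6 and CDT1 load MCM helicases onto DNA. Activated helicases then open the duplex, RPA coats the single strands, and the polymerases copy them while the sliding clamp holds the polymerase in place. E2F transcription factors are known to drive many of these genes as cells enter S phase. In the intestinal crypt, stem cells and their transit-amplifying progeny cycle, and most differentiated cells do not.

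RNA was measured in sorted duodenal crypt cells of mice aged 8 to 12 weeks, of mixed B6/129S6 background, given doxycycline at 4 mg/ml with 1% sucrose in the drinking water for 24 h. Every mouse carried the Lgr5-EGFP stem cell reporter and a doxycycline-inducible transgene that fuses the red protein TdTomato to BRAF(V600K), an oncogenic kinase that activates MEK and ERK, or to luciferase as the control. Cells were gated into RG (red and green), R (red), G (green) and NEG (neither). The 6 groups were BRAF RG, BRAF R, BRAF G and BRAF NEG, with 3 mice each, and luciferase RG and luciferase G, with 2 mice each. The gates of a line came from the same mice, the mice being the replicates, and there are no luciferase R or NEG arrays among the samples analysed here. G and NEG cells of both lines came from induced mice and serve as the non-red comparison, so red fluorescence, transgene level and whatever else differs between the gates cannot be told apart. Line and transgene cannot be told apart either, and Braf had no probe in the table.

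All arrays share 1 intensity distribution, with medians from 118.9 to 119.9 on a scale from 55.7 to 40121.2, and a probe at or under the median gives only a bound. Lgr5 averaged 177.2 in BRAF RG, 394.4 in BRAF G, 126.9 in BRAF R, 240.5 in BRAF NEG, 139.6 in luciferase RG and 456.8 in luciferase G, so both RG gates lay below BRAF NEG in Lgr5 signal. Arrays resembled each other least in BRAF R (mean correlation with the other arrays of the group, across probes, 0.918 to 0.939) and luciferase RG (0.924). In the G gates it was 0.977 to 0.980 for BRAF and 0.990 for luciferase. Epithelial markers were bright in every group, with a summed intensity of 5 markers between 21740 and 40101.

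Promoter sequence was looked at because many members were lower in the same samples. RefSeq promoters (build GRCm38.p6) were found for 35 of the 40 members. Over the 250 bases before the start, 6 of 35 members (17.1%) held an E2F-type word, TTTCCCGC, TTTCGCGC, TTTGCCGC or TTTGGCGC on either strand. The shares were 3.78% of 8630 tested genes with a promoter and 2.16% of all 27025 genes with a promoter. With the 50 bases after the start, the shares were 12 of 35 (34.3%), 4.58% and 2.6%. A CCAAT box on either strand, a common promoter element, lay before the start in 21 of 35 members (60%). It did so in 40.5% of tested genes and 37.5% of all genes with a promoter. The 6 members with an E2F-type word before the start were Mcm5, Mcm6, Mcm7, Orc1, Cdc6 and Pola1. The 3 MCM subunits among them are shown, chosen because they passed the test in both comparisons in which most members were lower, with the words in capitals (overlapping words on opposite strands merge into 1 run). The words began 153 and 149 bases before the start in Mcm5, 110, 106 and 47 before it in Mcm6, and 165 before it in Mcm7. The Mcm5 stretch is chr8:75109259-75109508 on the plus strand, the Mcm6 stretch is chr1:128359706-128359955 on the minus strand, and the Mcm7 stretch is chr5:138171884-138172133 on the minus strand.
Mcm5: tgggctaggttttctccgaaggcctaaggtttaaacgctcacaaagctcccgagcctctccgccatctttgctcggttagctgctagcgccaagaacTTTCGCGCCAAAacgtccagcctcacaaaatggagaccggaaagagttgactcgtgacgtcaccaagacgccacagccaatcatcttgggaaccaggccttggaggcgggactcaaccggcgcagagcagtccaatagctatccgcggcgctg
Mcm6: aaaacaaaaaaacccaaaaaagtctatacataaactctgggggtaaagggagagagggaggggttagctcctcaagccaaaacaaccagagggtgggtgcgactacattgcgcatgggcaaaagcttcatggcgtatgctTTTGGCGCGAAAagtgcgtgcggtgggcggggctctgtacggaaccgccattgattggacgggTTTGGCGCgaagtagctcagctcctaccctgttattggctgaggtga
Mcm7: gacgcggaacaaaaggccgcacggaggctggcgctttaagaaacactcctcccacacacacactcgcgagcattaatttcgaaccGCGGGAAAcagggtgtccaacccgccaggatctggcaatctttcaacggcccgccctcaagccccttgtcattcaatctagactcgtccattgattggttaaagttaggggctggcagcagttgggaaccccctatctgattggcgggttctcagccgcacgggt
Orc1 and Cdc6, which also held such a word, passed the test in neither comparison. These matches describe letters, not binding.

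Replication genes were lower in BRAF R than in BRAF NEG and lower in luciferase RG than in luciferase G, while BRAF RG differed little from BRAF G. Against BRAF NEG, 25 of 40 members fell in BRAF R and 0 rose, with a median log2 difference of -0.75, in a comparison where 7.3% of 10607 tested genes fell (12.6% changed either way) and the median of all genes was -0.01. A gene passed when limma's adjusted p, by Benjamini-Hochberg over all tested genes, was under 0.05. In luciferase RG, 21 of 40 members fell relative to luciferase G and 0 rose, with a median of -0.79, where 6.78% of tested genes fell (11.9% changed) and the median of all genes was -0.01. In BRAF RG, 0 of 40 members passed against BRAF G by limma (5 at an unadjusted p under 0.05), with a median of -0.24, where 0.801% of tested genes changed and the median of all genes was -0.02. In these sorted bulk samples, fewer cycling cells and less of each RNA per cell cannot be told apart.

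The direction held mouse by mouse. In BRAF R, 38 of 40 members were lower than NEG in each of 3 mice, against 26.6% of tested genes, and 29 had groups that did not overlap (16% of tested genes). In luciferase RG, 39 of 40 were lower than G in both mice (36.1% of tested genes), and 38 did not overlap (31.7% of tested genes). In BRAF RG, 24 of 40 were lower than G in each of 3 mice (22.2% of tested genes), and 12 did not overlap (9.72% of tested genes), so the small BRAF RG differences also leaned downward. The median interval of the BRAF RG difference ran from -0.69 to 0.16.

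**Figure D1:**
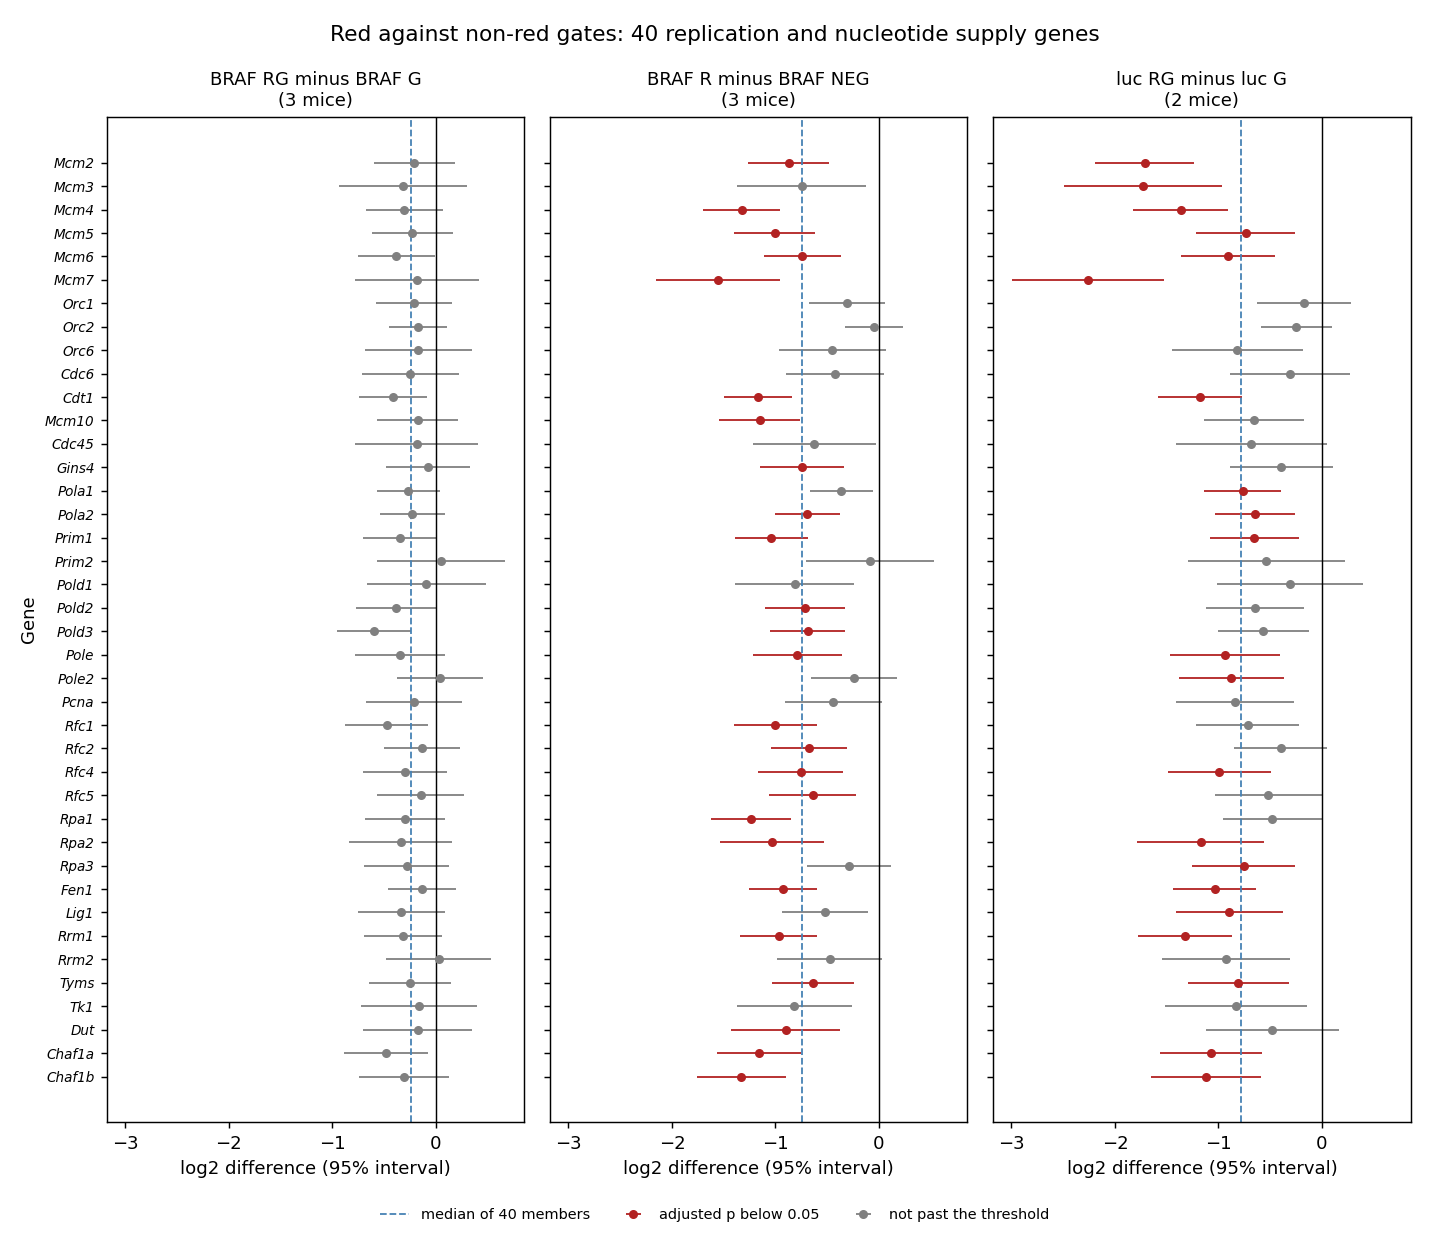
Log2 difference of each of 40 members between a red gate and the non-red gate of the same mice, with its 95% interval from limma, for BRAF RG minus BRAF G, BRAF R minus BRAF NEG and luciferase (luc) RG minus luc G. Red points passed an adjusted p of 0.05: 0, 25 and 21 members, and the dashed lines mark the member medians of -0.24, -0.75 and -0.79.

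Markers of other cells moved with these gates. Summed over 12 leukocyte markers, intensity was 1529 to 2172 in BRAF R and 19002 to 27364 in BRAF NEG, and 11 of 12 markers fell in R. It was 1462 to 1549 in luciferase RG and 1375 to 1377 in luciferase G. The 10 enteroendocrine markers summed to 24805 to 56852 in BRAF R and 12361 to 18814 in BRAF NEG, and to 37330 to 37443 in luciferase RG and 7576 to 9373 in luciferase G. The 6 goblet markers summed to 27535 to 37850 in BRAF R and 17580 to 23933 in BRAF NEG, and to 39576 to 43222 in luciferase RG and 7199 to 7739 in luciferase G. Stem cell markers, 9 in all, summed to 9209 to 11324 in BRAF R and 21544 to 24419 in BRAF NEG, and to 13448 to 16129 in luciferase RG and 29293 to 30223 in luciferase G. The 4 Paneth markers summed to 24901 to 32971 in BRAF R, within the 11991 to 40139 of BRAF NEG, and to 31856 to 32537 in luciferase RG and 19074 to 20010 in luciferase G. The 6 enterocyte markers summed to 8772 to 15615 in BRAF R and 5684 to 6543 in BRAF NEG, and to 13751 to 14274 in luciferase RG and 5390 to 5971 in luciferase G. The 6 tuft markers summed to 544 to 849 in BRAF R and 1128 to 2087 in BRAF NEG, and to 744 to 933 in luciferase RG and 1416 to 1495 in luciferase G. Both red gates with low replication genes thus had higher enteroendocrine, goblet and enterocyte sums and lower stem cell and tuft sums than their non-red partner, while Paneth sums were higher in luciferase RG and overlapped in BRAF R. The part of these markers in the member differences was not tested. In BRAF RG, the enteroendocrine sum was 14824 to 17325 against 5932 to 10151 in BRAF G. The goblet sum was 12875 to 23168 against 7662 to 11181. The stem cell sum was 18537 to 23871 against 27457 to 34138, and the tuft sum 623 to 665 against 1444 to 1837. These sums thus moved the same way in BRAF RG, while its Paneth and enterocyte sums overlapped those of BRAF G.

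Of the 25 members lower in BRAF R and the 21 lower in luciferase RG, 16 were the same. That is 64% of the BRAF R genes, beside 52.5% of all 40 members that fell in luciferase RG. It is 76.2% of the luciferase genes, beside 62.5% of all 40 members that fell in BRAF R. These comparisons share no mouse, and whether the overlap exceeds these shares was not tested. The 16 were Mcm2, Mcm4, Mcm5, Mcm6, Mcm7, Cdt1, Pola2, Prim1, Pole, Rfc4, Rpa2, Fen1, Rrm1, Tyms, Chaf1a and Chaf1b. Another 9 passed in BRAF R only (Mcm10, Gins4, Pold2, Pold3, Rfc1, Rfc2, Rfc5, Rpa1 and Dut) and 5 in luciferase RG only (Mcm3, Pola1, Pole2, Rpa3 and Lig1), though the difference between the comparisons was not tested for BRAF R. The 10 that passed in neither were Orc1, Orc2, Orc6, Cdc6, Cdc45, Prim2, Pold1, Pcna, Rrm2 and Tk1. These lists depend on whether mouse enters the fit, and the share of all tested genes passing with mouse as a block is not given here. With mouse as a block, 28 members passed in BRAF R and 27 in luciferase RG, and 22 were shared, the 6 added being Mcm10, Pold2, Rfc1, Lig1, Rrm2 and Tk1. Then 6 passed in BRAF R only (Gins4, Pold3, Rfc2, Rfc5, Rpa1 and Dut), 5 in luciferase RG only (Mcm3, Pola1, Pole2, Rpa3 and Pcna) and 7 in neither. Intensities below are listed in the order of the mice, and each difference is one of log2 intensity with its standard error.

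**Figure D2:**
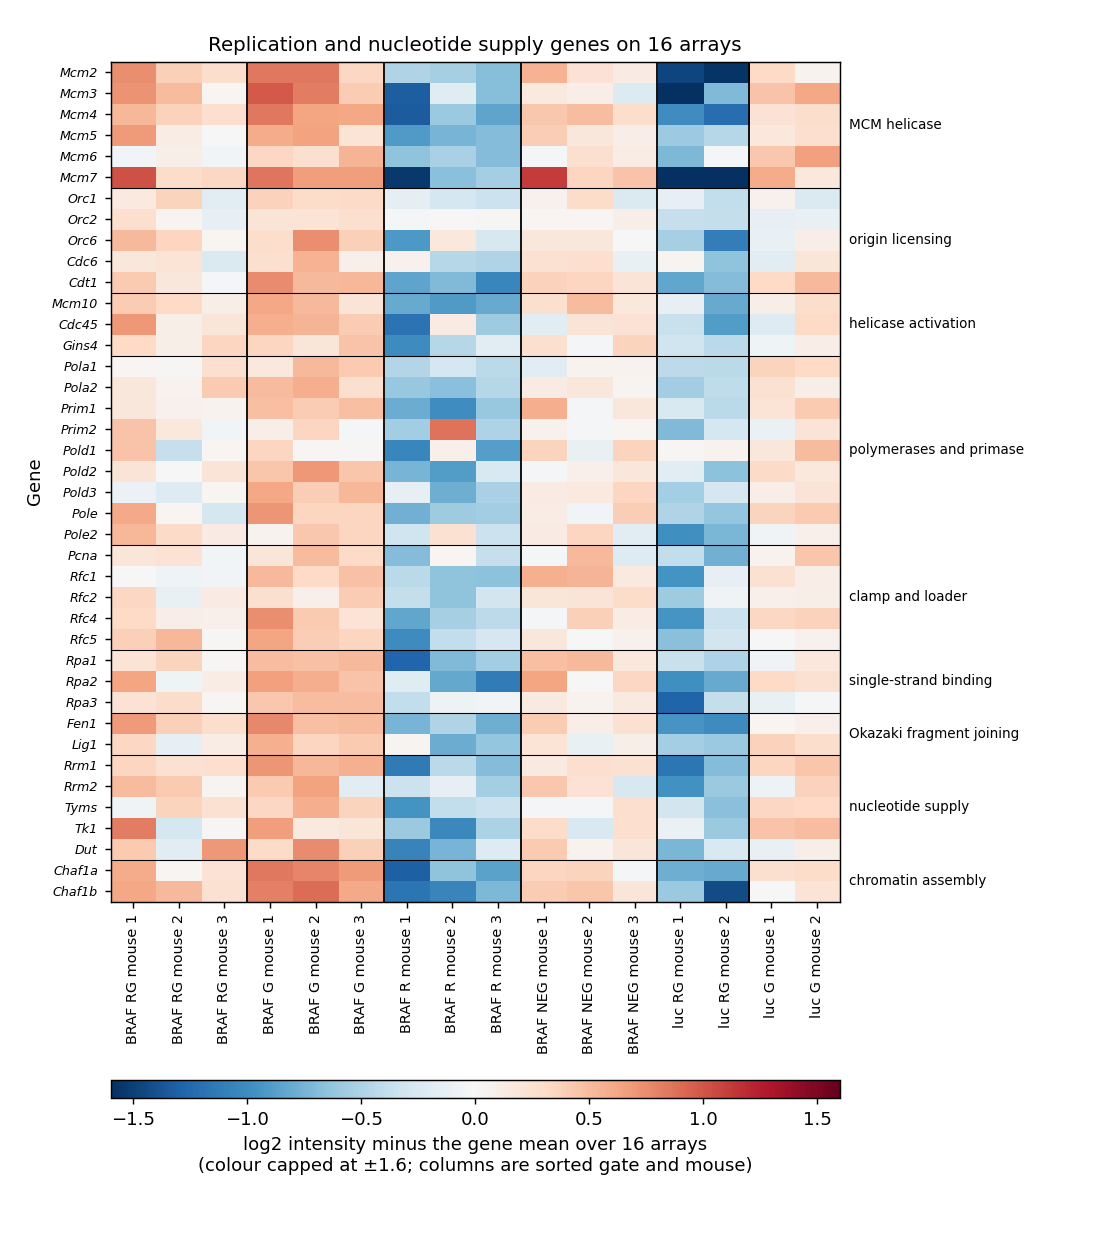
Each of 40 members (rows, by role) on each of 16 arrays (columns, by sorted gate and mouse; luc is luciferase), coloured by log2 intensity minus that gene's mean over the arrays. The 3 BRAF R columns had 34 to 39 members below their own mean and the 2 luciferase RG columns 38 to 39, against 0 to 2 in BRAF G and 3 to 11 in luciferase G.

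The MCM subunits, which together form the replicative helicase, had the lowest luciferase median of the 9 roles. In BRAF R, 5 of 6 fell relative to NEG (median -0.94), in luciferase RG 6 of 6 fell relative to G (median -1.54), and in BRAF RG 0 of 6 passed against G (median -0.26). Mcm4 had 942.1, 1564.2 and 1315.5 in BRAF R, against 3188.0, 3338.4 and 2875.8 in BRAF NEG. Every R array lay well under every NEG array (-1.33 ± 0.18, limma adjusted p 0.000149). The size depends on the probe: the other probes of Mcm4, above the array median on all 16 arrays, gave -0.33 and -0.50 in BRAF R and -0.49 and -0.81 in luciferase RG. The luciferase RG arrays had 1186.0 and 1013.5, against 2774.8 and 2875.8 in luciferase G, again without overlap (-1.37 ± 0.21, limma adjusted p 0.00116). BRAF RG arrays had 3426.9, 3051.8 and 2861.8, against 4228.0, 3672.0 and 3627.0 in BRAF G. These also did not overlap, but the difference was small beside the other gates and did not pass (-0.30 ± 0.18, limma adjusted p 0.679).

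Mcm2, another helicase subunit, had 149.7 and 139.6 in luciferase RG, against 519.2 and 431.7 in luciferase G. The RG arrays were close to the array median and far below both G arrays (-1.71 ± 0.22, limma adjusted p 0.000362). In BRAF R it had 297.9, 287.4 and 258.5, against 608.5, 488.7 and 456.2 in BRAF NEG, with no overlap (-0.87 ± 0.18, limma adjusted p 0.00587). BRAF RG, at 695.1, 539.0 and 505.3, overlapped BRAF G, at 745.5, 747.1 and 520.8 (-0.21 ± 0.18, limma adjusted p 0.849). Mcm6 had 1811.0, 1980.3 and 1757.6 in BRAF R, against 2799.2, 3396.4 and 3076.4 in BRAF NEG, and fell (-0.74 ± 0.17, limma adjusted p 0.0118). In luciferase RG it had 1723.5 and 2806.7, against 3820.7 and 4467.9 in luciferase G (-0.91 ± 0.21, limma adjusted p 0.0124). The mice of that gate stood apart from each other, mouse 1 being much the lower, yet both lay under G.

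Mcm7 is given because its differences were large, a choice made after its values were seen. It had 161.2, 296.7 and 322.9 in BRAF R, against 1020.4, 596.1 and 642.9 in BRAF NEG (-1.55 ± 0.28, limma adjusted p 0.00216). Luciferase RG cells had 150.7 and 109.0, against 711.4 and 527.8 in luciferase G (-2.26 ± 0.35, limma adjusted p 0.000977). Of the luciferase RG arrays, 1 of 2 was above the array median. BRAF RG, at 954.5, 575.8 and 591.8, overlapped BRAF G, at 850.2, 749.4 and 746.8. Mcm5 fell by 1.01 ± 0.18 in BRAF R (limma adjusted p 0.00218) and by 0.74 ± 0.22 in luciferase RG (limma adjusted p 0.0443). Mcm3 passed in luciferase RG (-1.73 ± 0.36, limma adjusted p 0.00613) and not in BRAF R, where the arrays were 113.3, 246.9 and 176.3, against 314.3, 304.6 and 243.1 in NEG. Its probe was above the array median on 1 of 2 luciferase RG arrays and 2 of 3 BRAF R arrays.

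**Figure D3:**
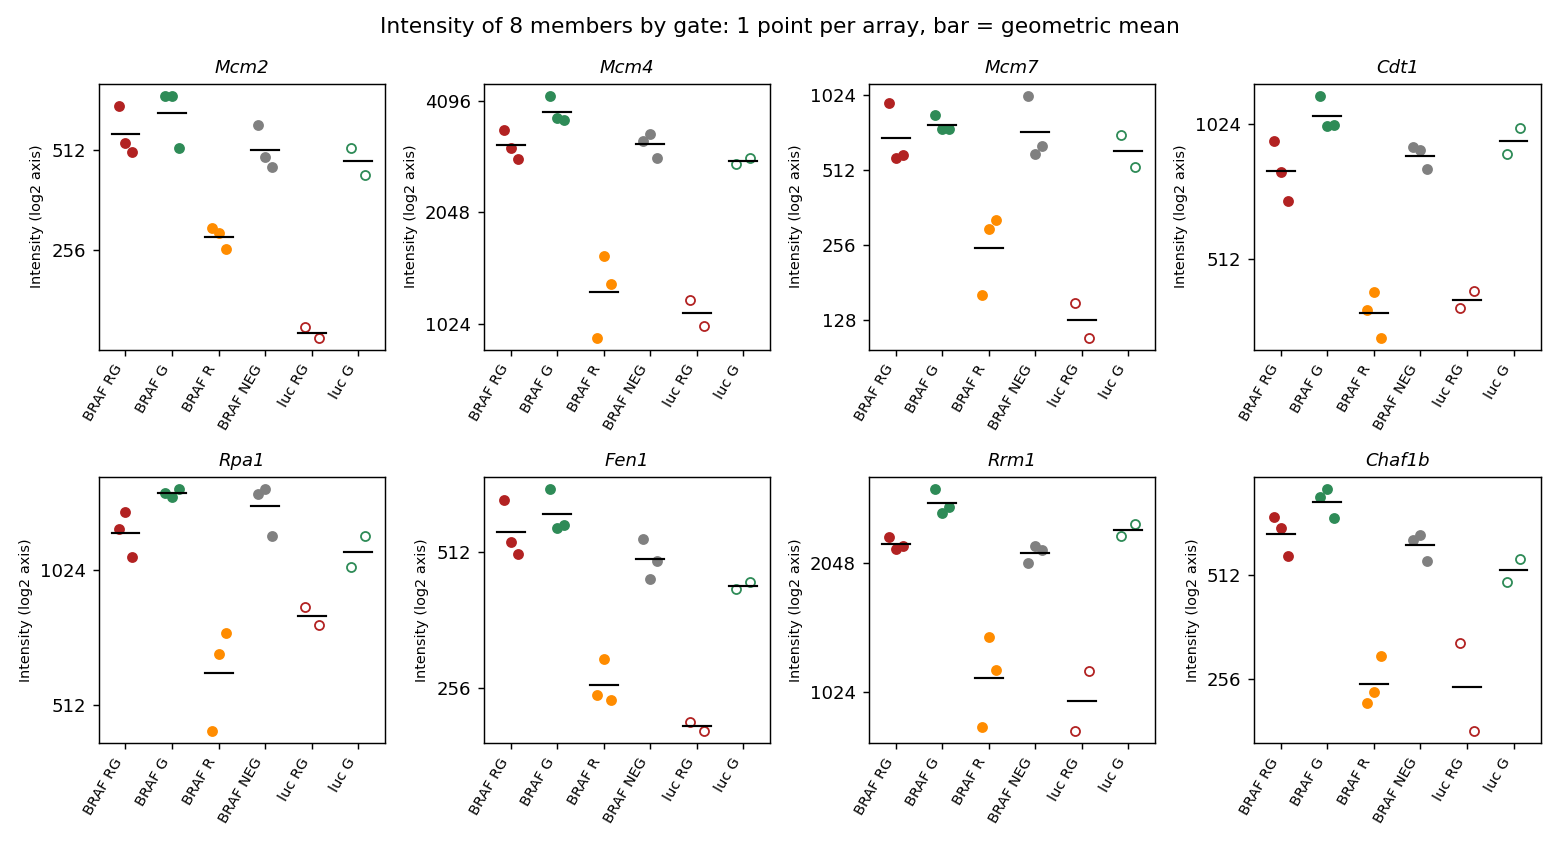
Intensity on a log2 axis of 8 members in the 6 groups, with 1 point per array and a bar at the geometric mean (luc, luciferase). In the panel of Mcm4, the 3 BRAF R arrays (942.1 to 1564.2) and the 2 luciferase RG arrays (1013.5 and 1186.0) sit below all arrays of the other groups (2774.8 and above).

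Of 5 origin licensing genes, 1 passed the test, in BRAF R and in luciferase RG alike: Cdt1, the factor that brings MCM helicases to origins. It had 394.3, 432.3 and 341.6 in BRAF R, against 908.5, 895.6 and 811.3 in BRAF NEG (-1.17 ± 0.15, limma adjusted p 0.000149). For luciferase RG the values were 397.2 and 434.2, against 877.3 and 1005.5 in luciferase G (-1.18 ± 0.19, limma adjusted p 0.00134). The BRAF R and luciferase RG arrays fell in nearly the same range and overlapped no non-red array. BRAF RG had 938.6, 800.2 and 690.0, against 1185.4, 1013.8 and 1017.8 in BRAF G, without overlap but not past the test (-0.41 ± 0.15, limma adjusted p 0.361). The origin recognition subunits Orc1 and Orc2 were close to the array median, with 82.5 to 93.6 and 129.5 to 132.8 in BRAF R, against 89.2 to 127.5 and 133.4 to 139.8 in BRAF NEG. Orc6, another recognition subunit, and Cdc6, the loading ATPase, had differences of -0.45 and -0.42 in BRAF R and of -0.82 and -0.31 in luciferase RG, none past the test.

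Helicase activation factors were lower in BRAF R. Mcm10, which helps start unwinding, had 307.0, 287.1 and 307.5 in BRAF R, against 640.8, 763.4 and 604.8 in BRAF NEG, a tight and separate pair of groups (-1.15 ± 0.18, limma adjusted p 0.000791). The luciferase RG arrays had 491.6 and 307.7, against 574.3 and 654.5 in luciferase G. Mouse 2 was much the lower RG array, and the difference missed the threshold (-0.66 ± 0.23, limma adjusted p 0.0705; 0.0498 with mouse as a block). Gins4, a subunit of the GINS complex, had 303.0, 441.7 and 534.3 in BRAF R, against 726.9, 596.9 and 779.0 in BRAF NEG, and fell (-0.75 ± 0.19, limma adjusted p 0.0182). It had 487.1 and 449.6 in luciferase RG, against 576.4 and 654.7 in luciferase G, which did not overlap but did not pass (-0.39 ± 0.23, limma adjusted p 0.291). Another GINS subunit, Gins3, is no member but was measured. It passed in luciferase RG, where both arrays were under the array median (mean 106.8, against 189.5 in luciferase G, limma adjusted p 0.0188), and not in BRAF R (mean 140.1, against 172.8 in BRAF NEG, limma adjusted p 0.294). Cdc45, the helicase partner of MCM and GINS, varied widely in BRAF R, from 96.7 to 239.9, and passed in neither comparison.

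Among 9 polymerase and primase genes, 5 fell in BRAF R (median -0.69) and 5 in luciferase RG (median -0.65). Prim1, the catalytic primase subunit, had 212.2, 184.7 and 240.2 in BRAF R, against 547.1, 361.0 and 414.0 in BRAF NEG (-1.04 ± 0.16, limma adjusted p 0.000725). In luciferase RG it had 310.6 and 272.4, against 427.2 and 489.6 in luciferase G (-0.65 ± 0.20, limma adjusted p 0.047). Its groups did not overlap in either comparison. Pola1, the catalytic subunit of the priming polymerase alpha, was at or under the array median in luciferase RG, at 87.3 and 86.8, against 149.3 and 146.4 in luciferase G, which is at least 1.24-fold lower (limma adjusted p 0.0109). In BRAF R it had 84.8, 96.6 and 87.2, all under the array median, against 103.0, 121.5 and 121.4 in BRAF NEG, and did not pass (limma adjusted p 0.113). No array exceeded 167.2 for this probe.

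Pold1, the catalytic subunit of polymerase delta, had 197.2, 431.7 and 220.6 in BRAF R, against 522.0, 373.9 and 520.6 in BRAF NEG. Mouse 2 ran against the others, and the difference did not pass (-0.81 ± 0.27, limma adjusted p 0.0611). Luciferase RG cells had 411.7 and 424.7, against 463.4 and 576.1 in luciferase G (-0.31 ± 0.33, limma adjusted p 0.588). Its partners Pold2 and Pold3 fell in BRAF R by 0.71 and 0.69. Pole, the catalytic subunit of polymerase epsilon, and Pola2, the regulatory subunit of alpha, were under the array median in BRAF R and in luciferase RG. Pole was at least 1.39-fold lower in BRAF R than NEG (limma adjusted p 0.0192) and at least 1.63-fold lower in luciferase RG than G (limma adjusted p 0.0236). Pola2 was at least 1.32-fold lower in BRAF R (limma adjusted p 0.00657) and at least 1.37-fold lower in luciferase RG (limma adjusted p 0.0308). Pole2, a polymerase epsilon partner, passed in luciferase RG and not in BRAF R, at least 1.68-fold lower in luciferase RG than G (limma adjusted p 0.0273). The other primase subunit, Prim2, had 125.6, 338.0 and 131.9 in BRAF R, with mouse 2 again high, against 194.8, 180.4 and 188.7 in BRAF NEG.

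The clamp loader subunits, which place PCNA on DNA, fell in BRAF R for 4 of the 4 measured, while Pcna itself did not pass. Rfc1, the large subunit, had 708.7, 613.1 and 609.3 in BRAF R, against 1417.9, 1395.9 and 1069.8 in BRAF NEG, without overlap (-1.0 ± 0.19, limma adjusted p 0.00289). For luciferase RG the values were 492.9 and 874.2, against 1135.3 and 1027.0 in luciferase G. Mouse 1 was the lower, and the difference missed the threshold (-0.72 ± 0.23, limma adjusted p 0.056; 0.0398 with mouse as a block). Rfc2 had 1346.1, 1122.4 and 1434.8 in BRAF R, against 2013.5, 2035.1 and 2146.4 in BRAF NEG, and fell (-0.67 ± 0.17, limma adjusted p 0.0182). It had 1183.7 and 1689.8 in luciferase RG, against 1854.8 and 1875.4 in luciferase G (-0.40 ± 0.21, limma adjusted p 0.231). Rfc4 was the loader subunit that passed in both lines. It had 330.6, 406.6 and 437.5 in BRAF R, against 578.8, 766.8 and 639.2 in BRAF NEG (-0.76 ± 0.19, limma adjusted p 0.0172). The luciferase RG arrays had 306.6 and 463.4, against 739.5 and 758.9 in luciferase G (-0.99 ± 0.23, limma adjusted p 0.0128). Pcna, the clamp, had 779.9, 1283.4 and 973.6 in BRAF R, which overlapped 1240.4, 1796.2 and 1089.8 in BRAF NEG (-0.44 ± 0.22, limma adjusted p 0.215). In luciferase RG its difference of -0.84 missed the threshold as well (limma adjusted p 0.0542; 0.0231 with mouse as a block).

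Of 3 RPA genes, which coat single-stranded DNA, 2 fell in BRAF R and 2 in luciferase RG. Rpa1, the large RPA subunit, had 447.3, 663.3 and 738.1 in BRAF R, against 1513.5, 1552.8 and 1218.2 in BRAF NEG (-1.24 ± 0.18, limma adjusted p 0.000424). In luciferase RG it had 845.4 and 769.1, against 1039.2 and 1216.8 in luciferase G, a separation that did not pass (-0.48 ± 0.22, limma adjusted p 0.176). Rpa2, the middle subunit, had 736.3, 476.9 and 388.0 in BRAF R, against 1305.5, 841.9 and 1061.1 in BRAF NEG, and fell (-1.03 ± 0.23, limma adjusted p 0.00948). It also fell in luciferase RG, at 425.6 and 482.0, against 1044.8 and 998.1 in luciferase G (-1.17 ± 0.29, limma adjusted p 0.0158). The other Rpa2 probe, above the array median on all 16 arrays, gave -0.91 in BRAF R but -0.30 in luciferase RG. Rpa3, the small subunit, passed in luciferase RG (-0.75 ± 0.23, limma adjusted p 0.0483) and not in BRAF R (-0.29 ± 0.19, limma adjusted p 0.36).

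Fen1 and Lig1, the flap nuclease and the ligase that finish Okazaki fragments, both fell in luciferase RG. Fen1 had 215.0 and 205.5 there, against 424.2 and 438.4 in luciferase G, tight pairs far apart (-1.04 ± 0.19, limma adjusted p 0.00304). In BRAF R it had 247.2, 296.3 and 240.3, against 547.7, 446.6 and 490.2 in BRAF NEG (-0.92 ± 0.16, limma adjusted p 0.00115). Lig1 had 576.2 and 556.1 in luciferase RG, against 1082.9 and 1022.0 in luciferase G (-0.89 ± 0.24, limma adjusted p 0.0259). Its BRAF R arrays, at 861.4, 485.0 and 544.3, overlapped those of BRAF NEG, at 973.6, 772.0 and 892.9, with mouse 1 high. That difference passed with mouse as a block and not without it (-0.52 ± 0.20, limma adjusted p 0.1; 0.0291 with the block).

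Of the nucleotide supply enzymes, 3 of 5 fell in BRAF R and 2 of 5 in luciferase RG. Rrm1, the large subunit of ribonucleotide reductase, had 846.7, 1374.5 and 1149.8 in BRAF R, against 2041.5, 2243.9 and 2191.4 in BRAF NEG (-0.97 ± 0.18, limma adjusted p 0.00211). Luciferase RG cells had 831.7 and 1143.1, against 2364.2 and 2518.9 in luciferase G (-1.32 ± 0.21, limma adjusted p 0.00147). No red array reached a non-red array in either comparison. Rrm2, the small subunit, differed by -0.48 in BRAF R and by -0.93 in luciferase RG, and both passed with mouse as a block and not without it (limma adjusted p 0.219 and 0.0513 without it, 0.0425 and 0.00457 with it). Tyms, which makes thymidylate, fell in BRAF R by 0.63 and in luciferase RG by 0.81. Dut, which removes dUTP, fell in BRAF R by 0.90, with 1 of 3 R arrays above the array median. Tk1, the salvage kinase for thymidine, was not past the test (-0.82 in BRAF R, limma adjusted p 0.0538, or 0.01 with mouse as a block), and its probes disagreed: another that was above the median on all 16 arrays gave 0.02.

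Both CAF-1 subunits, which place histones behind the fork, fell in both comparisons. Chaf1b had 217.8, 234.4 and 297.4 in BRAF R, against 644.4, 666.6 and 559.1 in BRAF NEG (-1.33 ± 0.20, limma adjusted p 0.000562). For luciferase RG the values were 324.8 and 181.5, against 489.1 and 569.6 in luciferase G (-1.12 ± 0.25, limma adjusted p 0.00948). Luciferase mouse 2 was the lower, but both mice were under G. Chaf1a had 140.3, 223.0 and 192.4 in BRAF R, against 440.6, 447.3 and 341.0 in BRAF NEG (-1.16 ± 0.19, limma adjusted p 0.000927). The luciferase RG arrays had 203.3 and 198.6, against 416.6 and 426.8 in luciferase G (-1.07 ± 0.23, limma adjusted p 0.00824). BRAF RG had 526.7, 354.5 and 409.5, against 626.0, 598.1 and 556.1 in BRAF G, separate groups that did not pass (-0.48 ± 0.19, limma adjusted p 0.406).

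These counts depended on the fit, and the share of all tested genes that passed in each alternative is not given here. Fitted on the arrays compared alone, 16 members passed in BRAF R against NEG and 8 in luciferase RG against G, and leaving out mice gave 13 (without BRAF mouse 2) to 17 and 5 (without luciferase mouse 1) to 10 (without luciferase mouse 2). Across all alternatives run, 11 of the 25 passed every time (Cdt1, Chaf1a, Chaf1b, Fen1, Mcm10, Mcm4, Mcm5, Mcm7, Prim1, Rpa1 and Rrm1) and 4 of the 21 (Cdt1, Mcm2, Mcm4 and Mcm7), with the direction kept for each of them.

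The lines were compared in the red gate. In BRAF RG, 23 of 40 members were higher than in luciferase RG and 0 lower, with a median of 0.73, where 9.55% of tested genes were higher (16.6% changed) and the median of all genes was -0.01. Groups did not overlap for 34 members, against 23.3% of tested genes. The MCM genes led, with 5 of 6 higher (median 1.56): Mcm7 by 2.42 ± 0.32 (limma adjusted p 0.000413), Mcm2 by 1.99 ± 0.20 (limma adjusted p 9.43e-05), Mcm3 by 1.62 ± 0.33 (limma adjusted p 0.00489) and Mcm4 by 1.5 ± 0.20 (limma adjusted p 0.000413). Chaf1b was higher by 1.47 ± 0.23 (limma adjusted p 0.00115), Fen1 by 1.43 ± 0.17 (limma adjusted p 0.000263) and Rrm1 by 1.21 ± 0.20 (limma adjusted p 0.0015). Pole2 was at least 2.08-fold higher in BRAF RG (limma adjusted p 0.0029). Cdc45 passed at a limma adjusted p of 0.0488, but in only 1 of the 13 alternatives run (0.0451 to 0.279; 0.0575 with mouse as a random block). Of the 23, 7 passed in every alternative. Mcm6, Prim1, Rfc1 and Rfc2, with differences of 0.37 to 0.51, did not pass. For Mcm6 this depends on the probe: others above the array median on all 16 arrays gave 0.38, 1.35 and 1.53. For Mcm4 the other probes gave 0.90 and 1.29, and for Rpa2, at 1.12 here, the other gave 0.04. On the arrays compared alone 7 members passed, with estimated array weights 13, without BRAF mouse 2 15, and without luciferase mouse 1 11. Markers also differed between these red gates. Of 6 goblet markers 5 were lower in BRAF RG (median -1.34), with a sum of 12875 to 23168 against 39576 to 43222 in luciferase RG. Of 10 enteroendocrine markers 5 were lower and 1 higher (median -0.91), with a sum of 14824 to 17325 against 37330 to 37443. The stem cell sum was 18537 to 23871 against 13448 to 16129, with 0 of 9 markers past the test by limma. Their part in the member differences was not tested.

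In the non-red gate, BRAF G and luciferase G differed less. There 0 of 40 members passed by limma (8 at an unadjusted p under 0.05), with a median of 0.27, where 0.217% of tested genes changed and the median of all genes was 0.01. Groups did not overlap for 23 members, all higher in BRAF G, against 18.5% of tested genes. Chaf1b had the largest difference, 0.66 (95% interval 0.17 to 1.14), with 856.2, 904.6 and 743.6 in BRAF G, against 489.1 and 569.6 in luciferase G. Fen1 was at 0.53 (95% interval 0.16 to 0.90). BRAF G mice also carry the transgene in their red cells, so G of the BRAF line is not an untreated group. With array weights, which favour the G arrays, 10 members passed, so the absence of calls depends on that choice. The share of all tested genes that passed with these weights is not given here, so that count is not set against it.

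**Figure D4:**
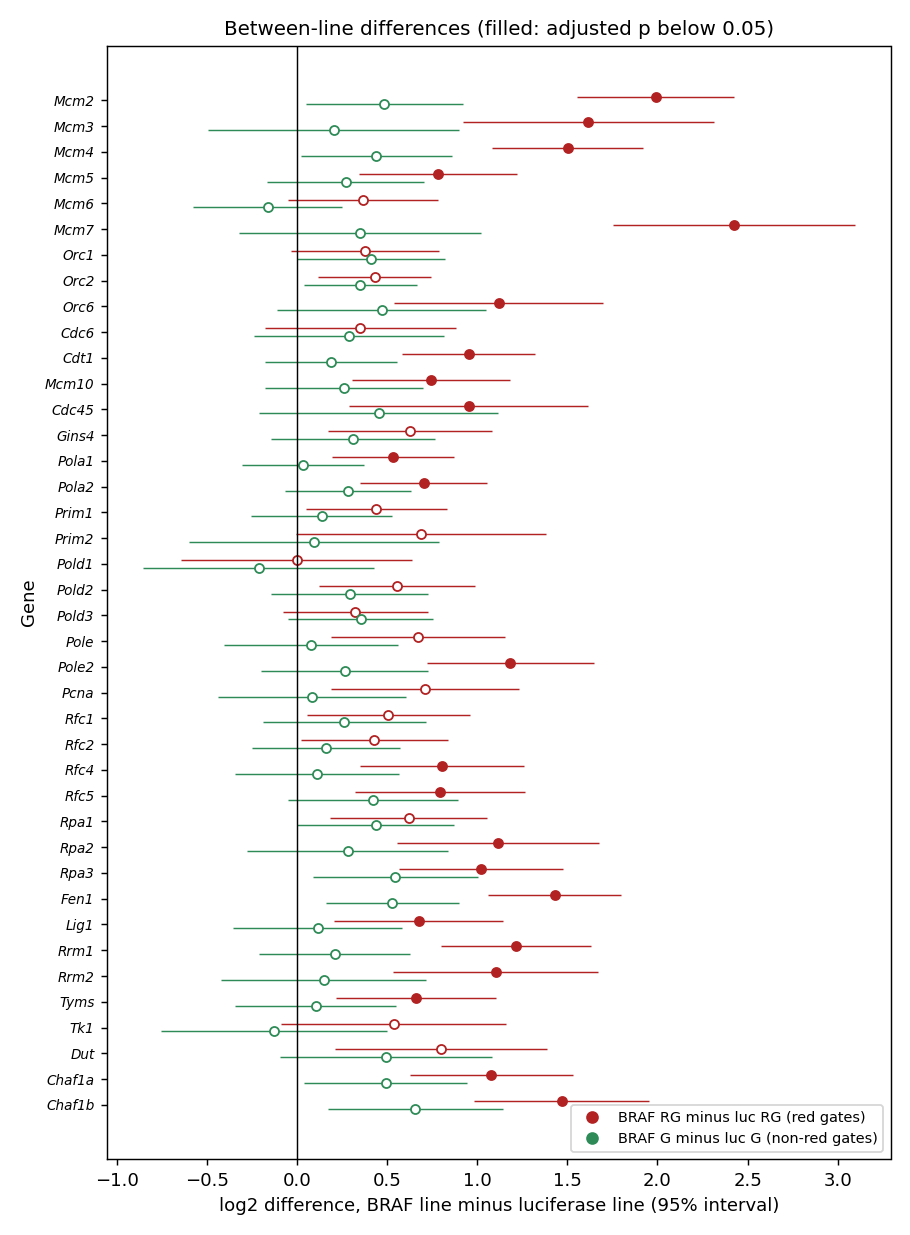
Log2 difference of 40 members between the BRAF and luciferase lines, with 95% intervals, for the red gates (BRAF RG minus luciferase (luc) RG, red) and the non-red gates (BRAF G minus luc G, green). Filled points passed an adjusted p of 0.05, 23 in the red gates and 0 in the non-red gates, with medians of 0.73 and 0.27.

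Whether the difference between RG and G itself differed by line was tested as the BRAF RG minus G difference less that of luciferase. Mcm2 was the 1 member of 40 that passed, at 1.51 ± 0.29 (limma adjusted p 0.037), where 0.481% of tested genes changed (0.189% higher in BRAF). Its BRAF RG arrays overlapped BRAF G, while luciferase RG lay far under luciferase G, as given above. Mcm7 differed by 2.07 ± 0.45 and missed the threshold (limma adjusted p 0.0543). It passed when mouse entered as a fixed term (0.0367) or a random one (0.0244). With the random block Mcm4, at 1.06, and Fen1, at 0.90, also passed (limma adjusted p 0.0493 and 0.0495). The member median was 0.54, against 0.02 for all genes, and 38 of 40 were above 0. Mcm2 passed in 8 of the 14 alternatives run. Among the fits in which it did not pass were those without BRAF mouse 2, without BRAF mouse 3 or without either luciferase mouse.

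Within the BRAF line, R was set against RG, both red, and NEG against G, both non-red. In BRAF R, 16 of 40 members fell relative to RG and 0 rose, with a median of -0.78, where 1.64% of tested genes fell (2.21% changed) and the median of all genes was 0.00. Groups did not overlap for 29 members, against 10.9% of tested genes. Mcm4 fell by 1.32 ± 0.18, Cdt1 by 1.05 ± 0.15, Chaf1b by 1.44 ± 0.20 and Fen1 by 1.12 ± 0.16, each at a limma adjusted p of 0.00418. The 16 all lay among the 25 that fell relative to NEG, but the 2 comparisons share the R arrays. The count was 27 with mouse as a block, 0 on the compared arrays alone, 0, 3 and 6 without BRAF mouse 1, 2 and 3, and 15 without the R array of mouse 1, the one least like its group, and 0 of the 16 passed in every alternative. Markers moved here too. Of 10 enteroendocrine markers 3 were higher in R (median 1.07), with a sum of 24805 to 56852 against 14824 to 17325 in RG. Of 6 goblet markers 2 were higher (median 0.95), with a sum of 27535 to 37850 against 12875 to 23168, and of 9 stem cell markers 3 were lower (median -0.71), with a sum of 9209 to 11324 against 18537 to 23871. Their part was not tested. In BRAF NEG, 0 of 40 members passed against G by limma (7 at an unadjusted p under 0.05), with a median of -0.29 against -0.04 for all genes, where 2.21% of tested genes changed. Groups did not overlap for 19 members, all lower in NEG, against 9.67% of tested genes. NEG held leukocyte marker signal that G did not (19002 to 27364 against 1254 to 1308), and 4 of 6 goblet markers were higher in NEG.

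The differences between red and non-red gates of the BRAF line were also compared with each other, as R minus NEG less RG minus G. By limma 0 of 40 members passed (1 with array weights), with a median of -0.50, where 1.27% of tested genes changed and 11 of 12 leukocyte markers were lower. The lowest limma adjusted p among members was 0.0663.

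Over the 6 groups, 34 members had their highest mean in BRAF G, 3 in BRAF RG and 3 in luciferase G. The lowest mean was in BRAF R for 20 members and in luciferase RG for the other 20. Median log2 intensity over the members was 8.20 to 8.24 on the BRAF R arrays and 8.26 to 8.31 on the luciferase RG arrays. BRAF NEG, from 8.87 to 9.14, and luciferase G, from 8.98 to 9.10, overlapped each other and BRAF RG, from 8.98 to 9.41. BRAF G, from 9.16 to 9.51, overlapped BRAF RG. No test was run between BRAF R and luciferase RG.

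Other genes of the pathway were read from lists by function. Of all tested genes, 7.3% fell in BRAF R against NEG and 6.78% in luciferase RG against G. Of 25 tested further replication factors, 9 fell and 1 rose in BRAF R against NEG (median -0.44), and 10 fell and 0 rose in luciferase RG against G (median -0.79). Clspn, a fork checkpoint mediator, fell in BRAF R by 1.74 ± 0.26 (limma adjusted p 0.000414), and the nuclease Dna2 by 1.51 ± 0.22 (limma adjusted p 0.000342), with 2 of 3 R arrays above the array median for Dna2. The gene that rose was Pold4, the small polymerase delta subunit, by 1.47 ± 0.27 (limma adjusted p 0.00218), with a mean of 465.7 in BRAF R and 164.1 in BRAF NEG, opposite to Pold2 and Pold3. Gmnn, which encodes geminin, the inhibitor of CDT1, averaged 157.3 in luciferase RG and 399.0 in luciferase G and fell by 1.37 ± 0.25 (limma adjusted p 0.00276). Of 23 further nucleotide synthesis genes, 7 fell in BRAF R and 4 in luciferase RG, with 0 rising in either. Ctps, CTP synthase, fell in both (-1.22 ± 0.23, limma adjusted p 0.003, and -0.96 ± 0.29, limma adjusted p 0.0411). Of 9 chromatin genes coupled to replication, 5 fell in each, among them Nasp, a histone chaperone, by 0.85 in BRAF R and 1.55 in luciferase RG.

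Of 19 tested regulators of S phase entry, 2 rose (10.5%) and 3 fell (15.8%) in BRAF R against NEG. Of all tested genes, 5.26% rose and 7.3% fell, and whether the regulators exceed these shares was not tested. In luciferase RG against G, 1 rose and 6 fell, where 5.11% of tested genes rose and 6.78% fell. Cdkn1a, the CDK inhibitor p21, averaged 1460.1 in BRAF R and 392.0 in BRAF NEG (1.91 ± 0.21, limma adjusted p 2.1e-05), and 964.0 in luciferase RG and 226.8 in luciferase G (2.09 ± 0.25, limma adjusted p 0.000216). It also rose in BRAF RG, at 774.8 against 268.8 in BRAF G (1.54 ± 0.21, limma adjusted p 0.00392), where 0 of 40 replication genes passed. E2f1, an activator of S phase genes, averaged 206.1 in BRAF R and 384.7 in BRAF NEG (-0.91 ± 0.22, limma adjusted p 0.0147), and 139.1 in luciferase RG and 435.7 in luciferase G (-1.65 ± 0.27, limma adjusted p 0.00169). Its mean was 307.0 in BRAF RG and 428.5 in BRAF G, a difference that did not pass (limma adjusted p 0.499).

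Mitosis and spindle genes, which act after replication, were read for comparison. In BRAF R, 3 of 23 (13%) fell relative to NEG (median -0.35), not far from the 7.3% of all tested genes that fell. Kif11, a spindle motor, was among them, lower by 0.72 ± 0.19 (limma adjusted p 0.0194). Of the 23, 21 were below 0, and 10 were lower without overlap of the groups, against 16% of tested genes. In luciferase RG, 9 of 23 (39.1%) fell relative to G (median -0.79), where 6.78% of tested genes fell. Incenp, a chromosomal passenger protein, led them, lower by 1.35 ± 0.25 (limma adjusted p 0.00319). In BRAF RG, 13 of 23 (56.5%) were higher than in luciferase RG (median 0.77), where 9.55% of tested genes were higher. Against luciferase G, BRAF G had a mitosis median of -0.07, beside 0.27 for the replication genes.

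Some members have further probes. Of the 40, 13 had more than 1, and other probes of Tk1, Cdc6, Prim2 and Tyms gave the opposite sign in BRAF R against NEG. For Tyms the 1 opposite probe (0.02) was above the array median on a single array, while the remaining 3 gave -0.41, -0.48 and -0.87. For Cdc6 the opposite probe (0.12) was above the array median on 0 of 16 arrays. Another Cdc6 probe, above it on 14 arrays, gave -0.25 in BRAF R, -1.21 in luciferase RG and 1.49 in BRAF RG against luciferase RG. The Cdc6 probe used gave -0.42, -0.31 and 0.35, and a further one, above the median on 6 arrays, -0.55, -0.44 and 0.50. For Prim2 the values were -0.08 and 0.03, so its direction is not settled. Sizes varied by probe for Mcm4, Mcm6 and Rpa2 as given above, and for Rfc4, whose other bright probe gave -1.0 in BRAF R and -0.61 in luciferase RG.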

How the data were processed

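Each of 16 arrays measured RNA of 1 sorted fraction on Illumina bead arrays. Per the labels' protocols, RNeasy Micro columns were used for extraction and NuGen chemistry for labelling. The authors deposited linear intensity values for 25697 probes, made with GenomeStudio per the submitters' processing notes (version and normalization not given in the sources used here). The sorted intensity values deposited for the arrays agree within 1.2, so they share 1 quantile-normalized distribution, and the lowest value of 55.7 shows that background was kept, which understates changes of dim genes. Another table with 32 columns (16 signal and 16 detection p) was not used, since its column numbers match no labels; the detection filter planned from it was replaced by the filter below.

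Probes were named by the platform annotation, checked by Entrez identifier against RefSeq: 23978 had 1 symbol, 0 had several, 1719 were unnamed, 23962 matched and 0 symbols changed. A probe was kept if it exceeded the array median on at least 2 arrays (16005 kept, 15000 named), and the kept probe of highest mean log2 intensity stood for each of 10607 genes. A probe at or under the median on every array of a group gives a bound, written as at least N-fold. No count or depth exists for arrays, whose number limits the precision.

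Log2 values of all 6 groups were fitted together, without a block, in limma 3.58.1 (R 4.3.3; lmFit and eBayes, 10 residual and 5.26 prior degrees of freedom), with p-values adjusted by Benjamini-Hochberg over all tested genes and a threshold of 0.05. Per the labels, arrays of 1 line with the same number come from the same mouse; deviations from group means correlated above 0.1 in 18 of 18 same-mouse BRAF pairs (median 0.319, across genes, which are not independent) and at 0.0457 in the luciferase line. The alternatives were mouse as a block, the background, filter, probe, array weight and centring choices, fits on the compared arrays alone, and each mouse left out. Chips and hybridisation days are not given in the sources used here. The members and gene lists were chosen with earlier results of these data known. Values on every array are given, in each role, for the member of smallest p in BRAF R against NEG, the member of smallest p in luciferase RG against G, the member of highest mean intensity, and members past the test in BRAF RG against G or in a difference of differences; Mcm7, Mcm3, Pcna and Prim2 were added after their values were seen. Genes of the other lists were named from the 4 of smallest adjusted p, except Gins3, which was named outside that rule as another GINS subunit.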

Additional observations from a re-analysis of the deposited data

Results flagged for a closer look

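Mcm2, a subunit of the replicative helicase, differed between the lines in how RG compared with G. The log2 difference between BRAF RG and BRAF G exceeded that between luciferase RG and luciferase G by 1.51 ± 0.29 (limma adjusted p 0.037), with -0.21 in the BRAF line and -1.71 in the luciferase line. Luciferase RG was lower than G in 2 of 2 mice. The difference between lines passed in 8 of the 14 alternatives run, and the cause was not tested. The fits in which it did not pass include those without BRAF mouse 2, BRAF mouse 3 or either luciferase mouse. Groups of 2 or 3 arrays are too small for a test of single outlying arrays, so none was run.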

How the results depend on the processing

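No member that passed the test changed direction under any alternative run. Of 108 recomputed counts 81 stayed within 1.5 times the count reported, with 27 that did not. The 81 include counts that stayed at 0 where no member had passed, so they say less about the comparisons with calls. Fitted on the compared arrays alone, 16 members passed in BRAF R against NEG, 8 in luciferase RG against G, 0 in BRAF R against RG, 7 in BRAF RG against luciferase RG, 2 in BRAF G against luciferase G and 2 in the difference between lines. These fits have fewer residual degrees of freedom. With estimated array weights, 1 passed in BRAF RG against G, 2 in BRAF NEG against G and 13 in BRAF RG against luciferase RG. With the same weights, 10 passed in BRAF G against luciferase G and 1 in BRAF R minus NEG less RG minus G. With the mean of all kept probes, 2 passed in the difference between lines. With mouse as a replicate block, 27 passed in BRAF R against RG, 2 in the difference between lines (4 as a random block), 28 in BRAF R against NEG and 27 in luciferase RG against G. The block added no call in the remaining comparisons and lost 1 (Cdc45 in BRAF RG against luciferase RG). Leaving out each mouse in turn gave 13 to 17 members in BRAF R against NEG (19 without the R array of mouse 1), 5 to 10 in luciferase RG against G, 0 to 1 in the difference between lines, 0 to 6 in BRAF R against RG (15 without that R array) and 11 to 18 in BRAF RG against luciferase RG. Without a luciferase mouse, the lone array of each gate is taken to vary like the other groups. Shares of all tested genes that passed under these alternatives are not given here, so the counts may not be particular to the members. Except as stated here, the cause of these shifts was not tested. Background limits members near the array median, such as Pola1, Pola2, Pole, Orc1 and Orc2.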
